A study of Mus musculus with 6 samples.

Results

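Amigo1, Arid5a and Tnnt2 are 3 of the 22350 protein-coding genes of the annotation, and they were taken as members because the study silenced a distal element near each of them by CRISPR interference. The accessible regions assigned to them were those within 100 kb of the annotated 5′ end or over the gene body, which made 42 of the 39435 regions found in any condition. Of these, 11 lay at Amigo1, 9 at Arid5a and 22 at Tnnt2. A region is a peak interval of at least 150 bp, joined to its neighbours across gaps under 1000 bp, first within a list and then over the 3 lists. Accessibility was measured by ATAC-seq, in which the transposase Tn5 cuts and tags open DNA, in NMuMG cells, an epithelial line from normal mouse mammary gland. The cells spent 6 h without serum and, by the methods of the study, without insulin. They were then given either vehicle for 2 h or 5 ng/ml of TGFβ1 for 2 or 12 h. There were 2 biological replicates each and 6 samples in all. The vehicle is labelled as Tris-HCl with BSA, while the treatment protocol names HCl with BSA. Vehicle cells were harvested at 2 h only, so TGFβ and the longer time without serum and insulin cannot be told apart at 12 h.

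The replicates of a condition had been combined by the authors into 1 list of peaks, so each value below is a single value per condition without a replicate spread, and no test between conditions was run. Absence from a list means that no reproducible peak was called there, not that the DNA was closed, and the lists hold no read count for a peak. The library read totals that the study states were not used here. The TGFβ lists were longer than the vehicle list, with 32548 regions after 2 h and 33079 after 12 h against 16765 for vehicle. Counts for the 3 genes are therefore given beside the share over all 39435 regions or over all protein-coding genes.

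Amigo1 encodes a leucine-rich repeat adhesion protein of neurons that also accompanies Kv2 potassium channels. Arid5a encodes a protein with an AT-rich interaction domain, known for binding and stabilising mRNAs of inflammatory cytokines. Tnnt2 encodes cardiac troponin T, the subunit that anchors the troponin complex to tropomyosin on the thin filament of heart muscle. The study assigned each to a cluster of TGFβ-regulated genes, with Cyb561d1 and Atxn7l2 for Amigo1, Kansl3 for Arid5a, and Lad1 and Pkp1 for Tnnt2. Gnai3, beside Amigo1, and Neurl3, beside Arid5a, served there as neighbours outside the groups. The study reports Gnai3 as not regulated by TGFβ and Neurl3 as repressed by it. In CRISPR interference, a guide RNA brings a Cas9 without cutting activity, fused to the repressor domain KRAB, to a chosen stretch of DNA, where it silences the element. The study ran it in a clonal derivative of NMuMG cells, from which no accessibility data were used here.

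The 6 guides, 2 for each gene, carry the link from the silencing experiment to the peak lists and are printed with the NGG that follows each in the mm9 genome in capitals.
sg1Amigo1: ggaaagggtagacctgtctgAGG
sg2Amigo1: gggttccgtatactgaaaaaGGG
sg1Arid5a: gtcctaccacatgaatccagGGG
sg2Arid5a: gatagtgtctgggtcaagaaTGG
sg1Tnnt2: gggactggagtctattgccaGGG
sg2Tnnt2: gccactcaacagatatgaggGGG
Each guide had exactly 1 perfect site next to an NGG on the assembled chromosomes. The Amigo1 sites began 5245 and 5480 bp past the annotated 5′ end on the plus strand, at chr3:107994498-107994517 and chr3:107994733-107994752, and both fell in sequence annotated as UTR of Amigo1 itself. The Arid5a sites lay 18798 and 18362 bp past the 5′ end, at chr1:36383376-36383395 on the minus strand and chr1:36382940-36382959 on the plus strand, in intergenic DNA between Arid5a and Kansl3. The Tnnt2 sites lay 21762 and 21192 bp past the 5′ end, at chr1:137759214-137759233 and chr1:137758644-137758663, both on the minus strand of the intergenic DNA between Tnnt2 and Pkp1. The study designed the guides near summits of its ATAC-seq peaks, so their closeness to a region is no result.

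The sequences around motifs in the regions at the guides are shown for comparison with the values that follow, on the plus strand of mm9. The capitals mark TGACTCA or TGAGTCA, the site of AP-1 (the Jun and Fos family), in the Arid5a and Tnnt2 sequences. In the short Amigo1 sequence they mark AGCCAGACA, a CAGA box, the kind of element that SMAD3 and SMAD4 bind.
Amigo1 guide region (chr3:107994876-107994905): ttttctctcaAGCCAGACAgtaaatatttt
Arid5a guide region (chr1:36382726-36383019): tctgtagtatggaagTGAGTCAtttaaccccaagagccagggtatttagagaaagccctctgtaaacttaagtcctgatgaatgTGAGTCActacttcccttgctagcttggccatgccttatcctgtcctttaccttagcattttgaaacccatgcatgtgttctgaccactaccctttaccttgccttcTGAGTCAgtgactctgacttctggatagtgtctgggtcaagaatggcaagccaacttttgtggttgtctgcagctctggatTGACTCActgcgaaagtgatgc
Tnnt2 guide interval (chr1:137758983-137759109): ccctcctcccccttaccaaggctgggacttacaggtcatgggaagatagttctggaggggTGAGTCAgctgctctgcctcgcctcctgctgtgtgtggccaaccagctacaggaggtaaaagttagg
Tnnt2 TGFβ interval (chr1:137760511-137760637): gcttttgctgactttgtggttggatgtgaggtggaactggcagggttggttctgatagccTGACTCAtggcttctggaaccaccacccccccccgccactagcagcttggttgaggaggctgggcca
The Arid5a sequence and the Tnnt2 guide interval were inside peaks of all 3 lists. The Amigo1 sequence and the second Tnnt2 sequence were inside peaks of both TGFβ lists and outside any vehicle peak.

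The regions at the guides differed between the genes in their listing, and in width mainly through a joined gap at Tnnt2. At Amigo1 the guide region was not listed in vehicle and measured 786 bp after 2 h and 846 bp after 12 h of TGFβ. It was called from 4 lines of each TGFβ list, and the vehicle list held no interval there even below the 150 bp minimum. At Arid5a the guide region was 643 bp wide with vehicle, 773 bp after 2 h and 933 bp after 12 h. At Tnnt2 it was 673 bp wide with vehicle, 2496 bp after 2 h and 2459 bp after 12 h, both TGFβ values including a joined gap. The Amigo1 element was thus listed with TGFβ alone, a phrase used here for regions of both TGFβ lists without vehicle, whereas those of Arid5a and Tnnt2 were already listed before TGFβ, each with the highest vehicle score of 1000, which 52.1% of vehicle regions reached.

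The large width at Tnnt2 was made of separate intervals. At 2 h an interval of 931 bp covered the guides and another of 592 bp followed after 973 bases without a peak. At 12 h the intervals measured 908 and 564 bp, with 987 bases between them, so that both gaps fell just under the 1000 bp limit for joining. The interval that held the guides, taken alone, was 1.38 times as wide at 2 h as in vehicle and 1.35 times at 12 h. A vehicle region counted as matched when 1 region of the TGFβ list overlapped it and that region overlapped no other in vehicle. When no gap was joined, 35.0% of the 16070 matched vehicle intervals had a ratio at least this large at 2 h, and 42.3% of 15042 at 12 h. The far interval began at the same base in both TGFβ lists and had no counterpart in vehicle. In the joined form the ratios were 3.71 and 3.65, which 3.03% and 3.84% of matched regions reached. The Arid5a guide region, where no gap was joined, had ratios of 1.20 at 2 h and 1.45 at 12 h. Those were reached by 53.5% and 38.3% of matched regions, so the guide intervals of Arid5a and Tnnt2 widened to a similar degree.

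Both Amigo1 guides lay inside the 2 h and 12 h regions, sg2Amigo1 within 4 bp of the centre of the region. At Arid5a, sg2Arid5a lay in all 3 lists, while sg1Arid5a began 5 bp past the last base of the region and was covered in no list. Both Tnnt2 guides lay in all 3 lists, in the interval that vehicle shared. The primer pairs with which the study followed these elements by chromatin immunoprecipitation and PCR were placed in the same way, those named LAD1 falling at the Tnnt2 guides. The Amigo1 products, of 85 and 197 bp, were fully covered in both TGFβ lists and not in vehicle, and the ARID5A-2, LAD1-1 and LAD1-2 products of 150, 139 and 73 bp were fully covered in all 3. The ARID5A-1 product, 128 bp long, began at the base after the Arid5a region ended and was covered in none.

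**Figure D1:**
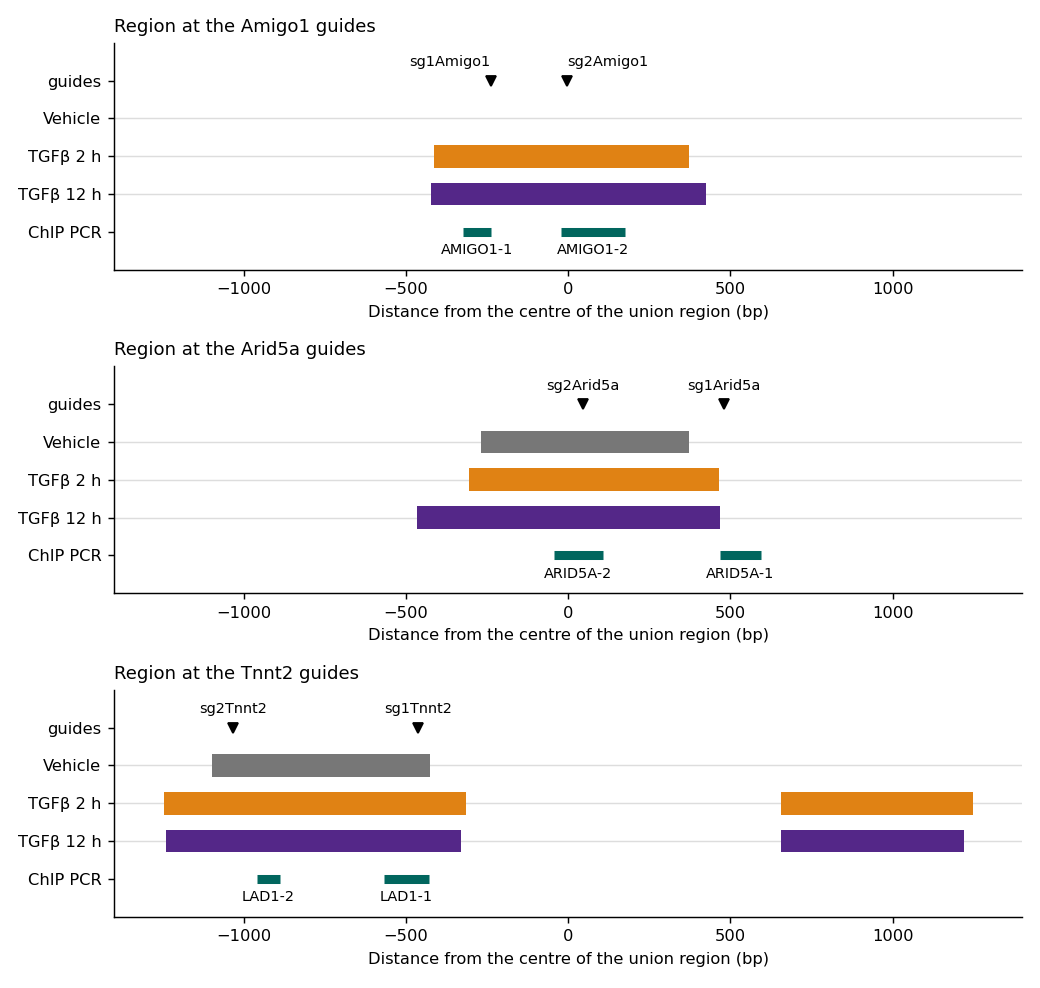
Peak intervals of the vehicle, TGFβ 2 h and TGFβ 12 h lists (bars) at the guides of each gene, against the distance in bp from the centre of the region over all lists, with guide centres (triangles) and the products of the primer pairs (green). No vehicle interval is present at Amigo1, sg1Arid5a lies just right of all intervals, and the Tnnt2 region splits into the shared interval with the guides and a far interval that only the TGFβ lists hold.

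Near matches of the guides were searched on the same chromosomes. No site with 1 mismatch beside an NGG was found for any of the 6 guides. The Arid5a guides had 1 site each with 2 mismatches, and the other guides had none. Sites with 3 mismatches numbered from 3 for sg2Amigo1 to 37 for sg2Arid5a. None of these near matches lay in a region of any list.

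The 5′ ends of the members also differed in their listing. Over the Amigo1 5′ end (chr3:107989253) a region of 911 bp was listed at 12 h and in neither other list. Such a listing at 12 h alone was rare, found at 1.20% of the 22350 protein-coding 5′ ends. The Arid5a 5′ end (chr1:36364578) was covered in all 3 lists, by 673 bp with vehicle, 659 bp after 2 h and 742 bp after 12 h, the state of 35.5% of 5′ ends. The Tnnt2 5′ end (chr1:137737452) was covered in no list, as were 57.1% of all 5′ ends, and the nearest region lay 9946 bp away with vehicle, 3427 bp after 2 h and 3432 bp after 12 h. Counting regions of any list, all 4 annotated protein-coding transcript starts of Amigo1 were covered, against 3 of 4 for Arid5a and 0 of 1 for Tnnt2. The Amigo1 starts all lay in the region listed at 12 h alone.

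The 150 bases before each 5′ end are printed 5′ to 3′ with every CG in capitals, because base composition sets these starts apart from one another.
Amigo1 (chr3:107989103-107989252): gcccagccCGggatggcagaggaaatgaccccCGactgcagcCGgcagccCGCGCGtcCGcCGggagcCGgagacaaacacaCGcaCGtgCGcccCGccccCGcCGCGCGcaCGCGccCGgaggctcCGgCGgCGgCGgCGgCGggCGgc
Arid5a (chr1:36364428-36364577): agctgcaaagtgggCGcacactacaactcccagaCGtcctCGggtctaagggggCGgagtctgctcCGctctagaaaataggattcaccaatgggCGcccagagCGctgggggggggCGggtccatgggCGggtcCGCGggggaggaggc
Tnnt2 (chr1:137737302-137737451): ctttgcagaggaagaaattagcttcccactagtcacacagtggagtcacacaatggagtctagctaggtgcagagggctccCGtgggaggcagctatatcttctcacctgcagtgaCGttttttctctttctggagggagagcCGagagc
Amigo1 had 27 CG pairs in this stretch, Arid5a 11 and Tnnt2 3, where the median protein-coding gene had 6. At least as many as at Amigo1 were found for 1.40% of genes, at least as many as at Arid5a for 32.1% and at least as many as at Tnnt2 for 67.4%. The Amigo1 stretch, the richest in CG of the 3, was covered at 12 h alone, while the Arid5a stretch was covered throughout.

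The neighbours in each group showed further differences. The Gnai3 5′ end was covered in all lists, with widths of 729, 924 and 811 bp for vehicle, 2 h and 12 h. Cyb561d1 had a region in all lists, of 658, 687 and 850 bp, that held both of its protein-coding transcript starts and ended between 180 and 216 bp from its outermost 5′ end. Atxn7l2 had none of its 6 transcript starts in a region, and the nearest region lay 9902 to 9938 bp from its 5′ end. Of the Amigo1 group, then, only Cyb561d1 had transcript starts in a region that vehicle shared. Whether the narrower vehicle intervals reached those starts was not examined.

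Kansl3, named 4632411B12Rik in the annotation, encodes a subunit of a histone acetyltransferase complex, and its 5′ end was covered by 446 bp with vehicle, 927 bp after 2 h and 979 bp after 12 h. Neurl3, a ubiquitin ligase gene, had its 5′ end listed with TGFβ alone, by 617 bp at 2 h and 634 bp at 12 h, and the nearest vehicle region lay 17989 bp away. Pkp1, which encodes the desmosomal protein plakophilin, was covered at its 5′ end by 377 bp at 2 h and 570 bp at 12 h, and the nearest vehicle region lay 56526 bp away. Lad1, for the basement membrane protein ladinin, had a region that came within 107 bp of its 5′ end at 2 h and 18 bp at 12 h, whereas the nearest vehicle region was 2265 bp away. In the Tnnt2 group the start of Pkp1 was thus covered with TGFβ alone, and those of Lad1 and Tnnt2 were covered in no list. Coverage with TGFβ alone, as at Neurl3 and Pkp1, was found at 4.72% of the 22350 protein-coding 5′ ends, and coverage in no list at 57.1%.

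Across the 42 regions, 18 belonged to all 3 lists (42.9%, against 38.4% of all regions) and 14 to both TGFβ lists without vehicle (33.3%, against 28.5%). A further 5 were listed at 12 h alone (16.3% of all regions) and 5 at 2 h alone (12.9% of all regions). None of the 42 was listed in vehicle and missing from a TGFβ list, a class that was small in the series too, with 2.25% of all regions in vehicle and at 2 h only, 1.16% in vehicle only and 0.388% in vehicle and at 12 h only. These shares were near those of the series as a whole. Of the 13 regions within 1000 bp of a transcript start, 9 were in every list and 3 with TGFβ alone, against 76.7% and 13.5% of the 11449 such regions in the series. Of the 29 farther away, 9 and 11 were, against 22.8% and 34.7% of the 27986 regions of that kind in the series.

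**Figure D2:**
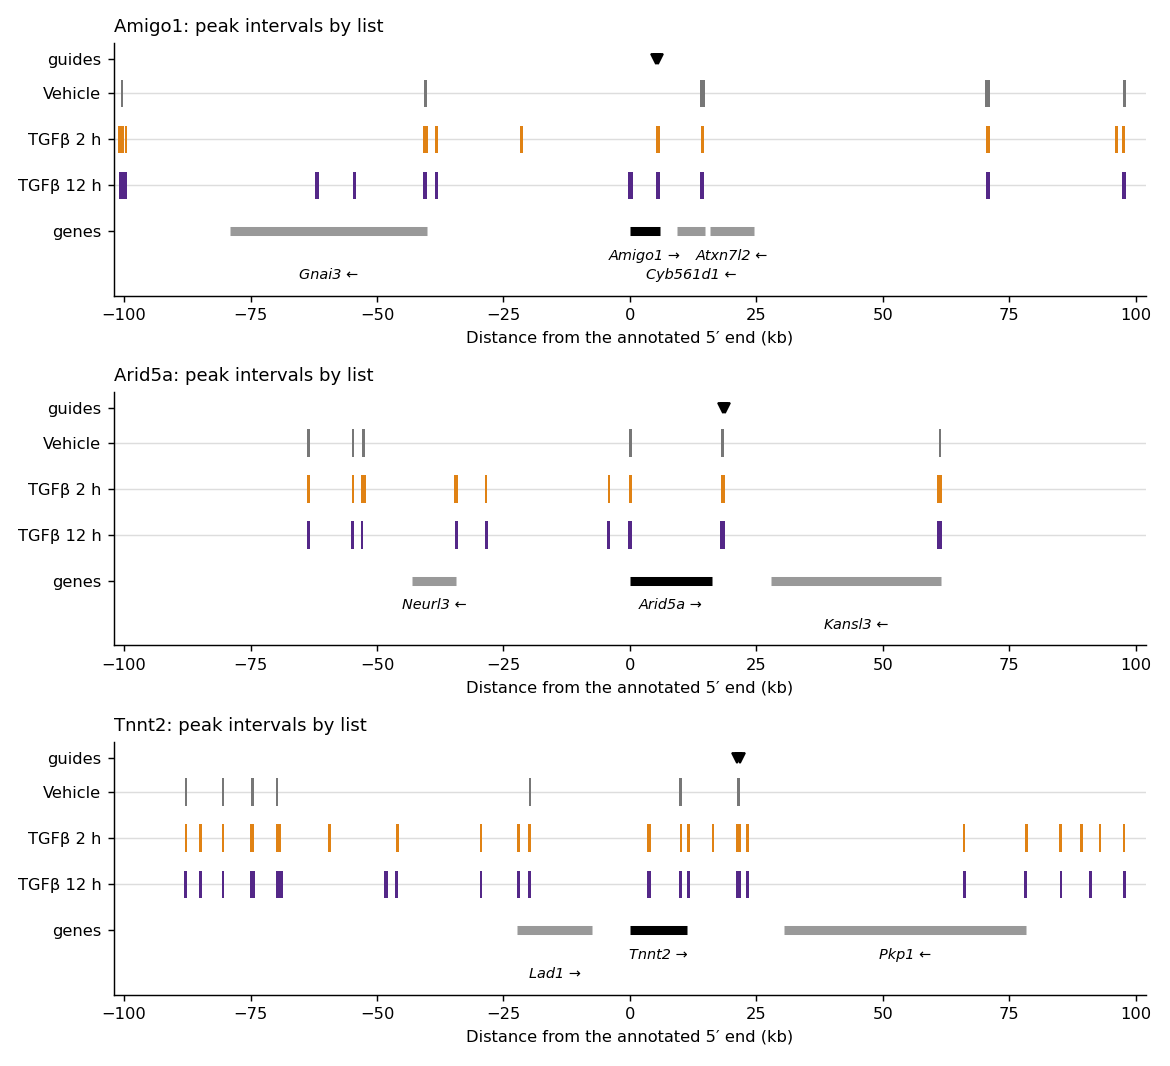
Peak intervals of each list within 100 kb of the annotated 5′ ends of Amigo1, Arid5a and Tnnt2, against the distance in kb, with the bodies of the members (black) and their neighbours (grey, the arrow giving the strand) and the guides (triangles). Intervals under 0.5 kb are drawn 0.5 kb wide. The Tnnt2 locus has 7 regions with vehicle, 20 after 2 h and 19 after 12 h of TGFβ.

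The Tnnt2 locus was the most densely listed. Of its 22 regions, 7 were in every list, 9 were listed with TGFβ at both times but not with vehicle, 4 at 2 h alone and 2 at 12 h alone. At least 22 regions within 100 kb were found for 0.116% of protein-coding genes, and 9 or more in both TGFβ lists only for 0.107%, where the median gene had 5 and 1. The count of 9 dropped to 3 when the TGFβ lists were shortened to as many intervals as the vehicle list holds, and to 4 in a window of 50 kb. Amigo1 had 5 regions in all lists, 2 in both TGFβ lists only, 3 at 12 h alone and 1 at 2 h alone, and 36.7% of genes had at least 2 of the second kind. Only 4 vehicle regions lay inside the Amigo1 window. Arid5a had 6 in every list and 3 with TGFβ alone, the latter reached by 19.3% of genes, and it had none at a single time. Such ranks among genes also depend on how many regions a locus holds. As shares of the regions at a locus, those with TGFβ alone made 40.9% at Tnnt2, 18.2% at Amigo1 and 33.3% at Arid5a, against 28.5% in the series. Regions of every list made 31.8%, 45.5% and 66.7% in the same order, against 38.4%.

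More sequence within 100 kb was covered in the TGFβ lists than in the vehicle list at each gene. At Amigo1 it was 3098 bp with vehicle, 4880 bp after 2 h and 7050 bp after 12 h. The vehicle interval of the region at the upstream edge, at the start of Ampd2, lay outside the window, into which its TGFβ intervals reached. Part of the larger TGFβ coverage at Amigo1, and of its ratios to vehicle, came from that region. At Arid5a the covered sequence was 3348 bp in vehicle and 5516 bp at both times. At Tnnt2 it was 2644 bp with vehicle, 13217 bp after 2 h and 12613 bp after 12 h. Tnnt2 thus had the least of the 3 genes in vehicle and the most with TGFβ, 5.00 times the vehicle value at 2 h and 4.77 times at 12 h.

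Over the 17229 genes with any vehicle coverage, the median ratio was 1.73 at 2 h and 1.78 at 12 h. Ratios as large as those of Tnnt2 were found for 3.26% and 4.61% of these genes. Amigo1, with ratios of 1.58 and 2.28, was reached or passed by 61.2% and 28.6% of them. Arid5a, with 1.65 at both times, was reached or passed by 55.9% and 58.1%. The Amigo1 and Arid5a ratios were near the middle of all genes at 2 h, and that of Arid5a also at 12 h. Without any joined gap, Tnnt2 had 11307 bp at 2 h and 11626 bp at 12 h, and the order of the 2 times turned.

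**Figure D3:**
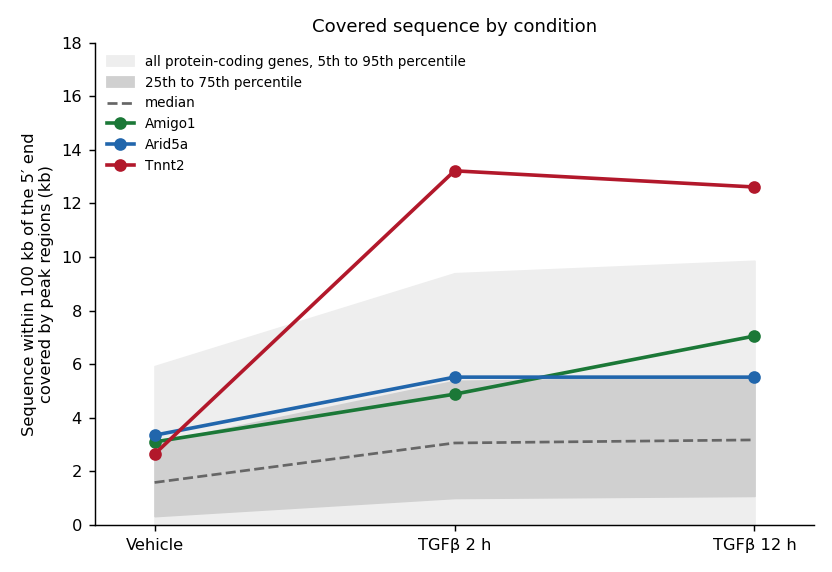
Sequence within 100 kb of the 5′ end covered by peak regions, in kb, in the vehicle, TGFβ 2 h and TGFβ 12 h lists for Amigo1, Arid5a and Tnnt2 (points and lines), over the 5th to 95th percentile (light grey), the 25th to 75th percentile (dark grey) and the median (dashed) of all protein-coding genes. Tnnt2 lies inside the middle range in vehicle and above the 95th percentile in both TGFβ lists.

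Over the Tnnt2 gene body there were 2 regions. The first, at chr1:137740879-137741652 in an intron, was listed with TGFβ alone, with 774 bp at 2 h and 649 bp at 12 h. It held 1 AP-1 match, printed in capitals with the bases around it.
Tnnt2 intron (chr1:137741173-137741299): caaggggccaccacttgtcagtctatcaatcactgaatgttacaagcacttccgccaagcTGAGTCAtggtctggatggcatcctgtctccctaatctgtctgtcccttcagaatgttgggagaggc
The second, at chr1:137747376-137749259, crossed the 3′ end of the gene. Its vehicle interval was among the weakest of that list, 171 bp wide with a score of 547, where the lowest score of any vehicle region was 540. At 2 h intervals of 374 and 540 bp were joined across 937 bases into 1851 bp, while at 12 h intervals of 236 and 461 bp stayed apart across 1187 bases. The ratio to vehicle of 10.8 at 2 h, reached by 0.0251% of matched regions, therefore included the gap. The interval that overlapped the vehicle one measured 374 and 236 bp.

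Upstream of Tnnt2, 11 regions lay between the window edge and the gene. The region at the start of Phlda3, a repressor of Akt signalling, was 535 bp wide with vehicle, 903 bp after 2 h and 937 bp after 12 h. An intergenic region 68.6 kb upstream had 350, 1085 and 1347 bp in the same order, and its ratios of 3.10 and 3.85 were reached by 5.22% and 3.26% of matched regions. In a Lad1 intron a region of 473 bp with vehicle had 737 bp after 2 h and 724 bp after 12 h. These shared regions were wider in both TGFβ lists, and regions of TGFβ alone stood among them, such as one 84.6 kb upstream with 734 bp after 2 h and 581 bp after 12 h.

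Between these, regions of 705 bp at 2 h and 586 bp at 12 h, and of 827 bp at 12 h alone, lay in an intron of Tnni1, which encodes the slow skeletal muscle troponin I. Downstream of the gene, the region at chr1:137753638-137754181 was listed at 2 h alone, with 544 bp. Past the Pkp1 start, 5 regions lay between 84.9 and 97.4 kb from the Tnnt2 5′ end, and none was in vehicle. The vehicle list was thus empty from the guide region to the end of the window on that side, while each TGFβ list held regions there.

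At Arid5a, the region nearest upstream of the start, at chr1:36360054-36360728, was intergenic and listed with TGFβ alone, with 504 bp at 2 h and 675 bp at 12 h. The gene body held no region other than that at the start. A region 52.3 kb upstream, at chr1:36311499-36312327, was 723 bp wide with vehicle, 829 bp after 2 h and 252 bp after 12 h. Its 12 h ratio to vehicle was 0.349, and 99.8% of matched regions had at least that ratio. At Amigo1 the body held the start region and the guide region and no other. The 12 h list added regions of 655 and 454 bp in introns of Gnai3, and the 2 h list a region of 201 bp between Gnai3 and Amigo1.

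Of the regions shared with vehicle, 14 of 18 were wider at 2 h (background 82.7%) and 15 of 18 at 12 h (background 83.6%). All 7 at Tnnt2 were wider at both times, with median ratios of 1.69 and 1.75. For the regions at the guides and across the 3′ end of Tnnt2, these widths include joined gaps or summed intervals. Their intervals that overlapped the vehicle ones were less wide. At the guides they were 931 bp at 2 h and 908 bp at 12 h, against 673 bp in vehicle. At the 3′ end they were 374 and 236 bp, against 171 bp. At Arid5a 4 of 6 were wider at each time, with median ratios of 1.14 and 1.28, and at Amigo1 3 of 5 at 2 h and 4 of 5 at 12 h, with 1.04 and 1.29. Over all matched regions the median ratio was 1.24 at 2 h and 1.28 at 12 h. The Amigo1 and Arid5a loci were therefore near the whole series in width, and the Tnnt2 values, with those joined widths, lay above it.

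**Figure D4:**
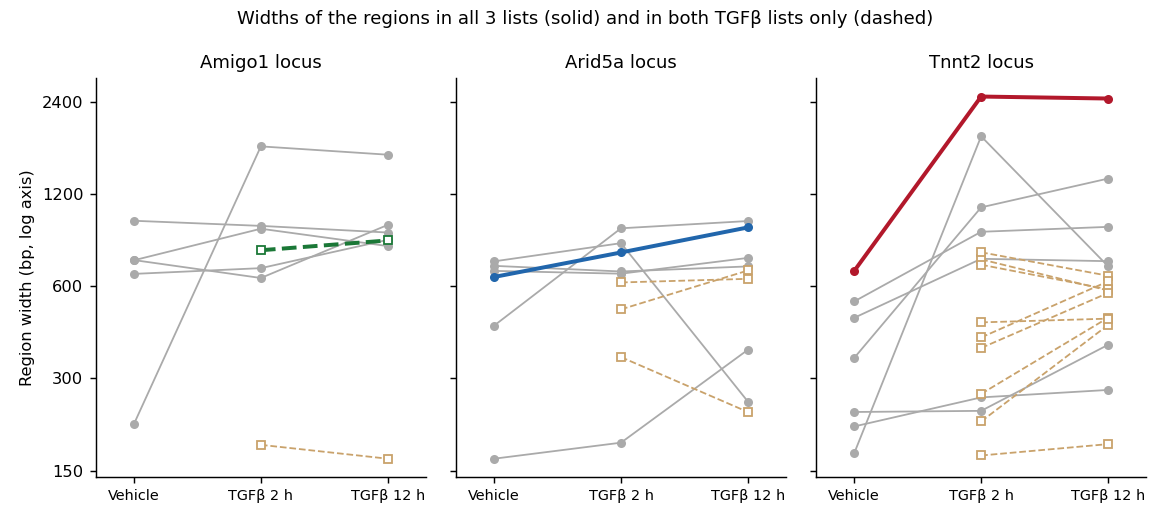
Widths in bp (log axis) of the regions at each gene in the vehicle, TGFβ 2 h and TGFβ 12 h lists, with solid lines for regions of every list and dashed lines for regions listed with TGFβ alone, with the region at the guides in colour. The Tnnt2 guide region stands highest at 2 h and 12 h, at 2496 and 2459 bp, which include a joined gap, and the Amigo1 guide region has no vehicle value.

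The motifs were counted as exact matches on both strands in a 500 bp window placed at each region's centre. A match describes the letters and not a bound site. AP-1, as TGACTCA or TGAGTCA, which are each other's reverse complement, was found in 11 of the 42 regions and in 35.6% of all regions. Base composition in the same windows ran from 41.2% to 78.2% G and C over the 42 regions, both ends at the Amigo1 locus, against a median of 49.0% in the series. Of the 11 regions with AP-1, 9 were among the 22 at Tnnt2. All 11 were among the 29 regions more than 1000 bp from a transcript start, where 46.0% of regions in the series held it. In the region across the Tnnt2 3′ end, the counted match lay in the gap between intervals, outside any peak. Another match in that region, outside the 500 bp window, lay in the far interval of both TGFβ lists.

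The Arid5a guide region held 4 AP-1 matches, all inside the peak of every list, as the printed sequence shows. Among the 39435 regions, 39 (0.0989%) had 4 or more in such a window, and 7.35% had 2 or more. The guide sg2Arid5a sat between the last 2 of these matches, with 16 bases to one and 38 to the other, and 15 bases from TGTGGTT, the letters of a RUNX site. Both of those AP-1 matches were inside the ARID5A-2 product.

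The Tnnt2 guide region had no match in the central 500 bp, which lay wholly in the joined gap between its intervals, outside any peak. Over its full length it had an AP-1 match in the shared interval, 164 bases from sg1Tnnt2, and another in the interval listed with TGFβ alone, where the printed sequence also holds tgtggtt. The Amigo1 guide region had no AP-1 match. It held the CAGA box printed above, 133 bases from sg2Amigo1 and inside the AMIGO1-2 product, a motif found in 1.32% of all regions and in no other of the 42. It also held TGTGGTT, 25 bases from sg2Amigo1, which 14.6% of all regions held.

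The E-box was the most frequent of the motifs searched at these genes, and the SMAD palindrome was absent. The SMAD palindrome GTCTAGAC was in 0 of 42 regions and in 0.819% of all. CCGGAAG, for ETS factors, was in 4 of 42, the regions at the starts of Gnai3, Cyb561d1, Uggt1 and Neurl3, against 7.80% of all. TGTGGTT was in 5 of 42, GGAATG, for TEAD factors, in 8 of 42 against 28.1%, and CAGGTG, the E-box of ZEB and SNAI factors, in 16 of 42 against 30.5%. The study states that it found neither motifs nor footprints of SNAI1 in its enhancers. It looked there for motif enrichment over shuffled sequences and for footprints, in regions away from transcript starts. Counts of exact letters, with promoter regions included, cannot be compared with that result. The motifs differ in length, so their order by frequency was not interpreted. No test was run on these counts, and the regions of a locus are not independent of each other.

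The CTCF consensus, for the factor that marks loop and domain borders, was in 3 of 42 regions, 1 at each gene, against 4.03% of all. At Amigo1 and Arid5a the region that held it was intergenic, lay 38.2 and 28.2 kb upstream of the 5′ end and was listed with TGFβ alone, so both sequences are shown with the match in capitals.
Amigo1 CTCF (chr3:107950953-107951044): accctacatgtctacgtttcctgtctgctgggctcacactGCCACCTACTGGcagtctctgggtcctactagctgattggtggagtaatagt
Arid5a CTCF (chr1:36336195-36336286): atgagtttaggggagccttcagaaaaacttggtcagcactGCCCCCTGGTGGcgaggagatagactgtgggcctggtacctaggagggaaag
The Amigo1 region was 182 bp wide after 2 h and 164 bp after 12 h, close to the 150 bp minimum, and lay between Gnai3 and Amigo1. The Arid5a region measured 352 and 233 bp and lay between Neurl3 and Arid5a. At Tnnt2 the matching region was 87.6 kb upstream, in all 3 lists, with 233 bp for vehicle, 235 bp after 2 h and 386 bp after 12 h. At Amigo1 and Arid5a the match stood between the member and the neighbour outside its group. Whether these matches play any part there was not tested. The study found no significant increase of CTCF at the borders of its co-regulated clusters. It proposes that CTCF mostly does not set their limits.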

How the data were processed

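ATAC-seq libraries from 6 samples were represented by 3 peak lists. The authors mapped paired-end reads to mm9 with the ENCODE ATAC-seq pipeline, called peaks with MACS2 2.1.2 and kept peaks reproducible between the replicates. Positions were taken as deposited. The authors deposited a peak score with the vehicle list, and its scale is not given in the sources used here. The same column numbers the lines in both TGFβ lists and was not used there.

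Repeated intervals were counted once, those under 150 bp were dropped and gaps under 1000 bp were joined, as in the methods of the study. An overlap of 1 bp counted as shared. Genes came from GENCODE vM1 on NCBIM37 (mm9), and coordinates are 1-based. Guides and primers were taken by sequence from the supplement of the study and searched on both strands of the genome, the guides with up to 3 mismatches beside an NGG. The members, neighbours, motifs and alternatives were chosen with earlier results of these data known. Named regions were every region within 100 kb of a member or over its body, and the genes most alike were the 3 protein-coding genes over 200 kb away with the smallest Euclidean distance in log2(covered bp + 1) over the 3 lists. Functions were tested on simulated data. Python 3.11.15, numpy 2.4.6 and matplotlib 3.10.9 were used.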

Additional observations from a re-analysis of the deposited data

Results flagged for a closer look

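In 3 shared regions the width was above the vehicle value in one TGFβ list and below it in the other. The difference between the times was not tested, since each list gives 1 value. The region 52.3 kb upstream of Arid5a was 723 bp wide with vehicle, 829 bp after 2 h and 252 bp after 12 h. The region at the Arid5a 5′ end measured 673, 659 and 742 bp in the same order. The region at the start of Sort1, near the edge of the Amigo1 window, measured 730, 638 and 951 bp, where the 2 h value is the sum of separate intervals of 186 and 452 bp.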

How the results depend on the processing

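No paired analysis was possible because each condition had 1 list made from both replicates, and for the same reason no replicate could be left out. Of 210 values recomputed under 8 alternatives, 184 stayed within 1.5 times the value reported, or equal for the number of lists. All 33 values did so without a minimum width, as did all 21 with the 5′ ends of all protein-coding transcripts and all 6 with a reciprocal overlap of 50%. Joining gaps under 500 bp, or none, gave widths of 931 bp at 2 h and 908 bp at 12 h for the Tnnt2 guide region. Joining gaps under 2000 bp left 1 region in both TGFβ lists only at Amigo1 and raised its covered sequence at 2 h to 7582 bp. With the TGFβ lists shortened to their widest intervals, as many as the vehicle list holds, regions in both TGFβ lists only numbered 1 at Amigo1, 1 at Arid5a and 3 at Tnnt2, and Tnnt2 kept 4 regions counted in all 3 lists.

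A window of 50 kb moved 16 of 18 values, by construction downward. Regions numbered 6 at Amigo1, 5 at Arid5a and 9 at Tnnt2, of which 2, 2 and 3 were in all lists, and 4 at Tnnt2 were in both TGFβ lists only. Covered sequence in vehicle, at 2 h and at 12 h was 1387, 2780 and 3582 bp at Amigo1, 1316, 2905 and 3217 bp at Arid5a, and 1317, 7542 and 6598 bp at Tnnt2. The number of lists at the guides and over the 5′ ends was equal under every alternative run on it.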

Other observations

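The largest width ratio of a shared region at the Amigo1 locus lay at its far upstream edge, at the start of Ampd2, which encodes an AMP deaminase. That region was 213 bp wide with vehicle, 1716 bp after 2 h and 1612 bp after 12 h, and the 2 h and 12 h ratios to vehicle of 8.06 and 7.57 were reached by 0.194% and 0.310% of matched regions. The vehicle interval lay outside the 100 kb window, into which the TGFβ intervals reached. By contrast the regions at the starts of Psma5 and Uggt1, which encode a proteasome subunit and a glycoprotein folding sensor, differed little between lists, with 981, 944 and 898 bp, and with 699, 670 and 696 bp.

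By covered sequence in the 3 lists, the genes most alike to Amigo1 were Jub, Noto and Il10rb, at Euclidean distances of 0.051, 0.069 and 0.071 on the log2 scale. Those most alike to Arid5a were Srgap3, Pttg1ip and Sumo3, at 0.033, 0.041 and 0.041, the last 2 with identical coverage. The nearest to Tnnt2 were farther off, Dpm2, St6galnac6 and Hes7 at 0.430, 0.455 and 0.477. Dpm2 had 2376 bp with vehicle, 10382 bp after 2 h and 10990 bp after 12 h, with 9 regions in both TGFβ lists only, as many as Tnnt2. The likeness is over 3 lists alone and describes these values only.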
